A study of Mus musculus with 7 samples.

Results

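A set of 41 genes that mark neuronal differentiation and the synapse was followed through a stepwise differentiation of mouse embryonic stem cells. The members were chosen by symbol from a list of named neuronal genes, with no threshold on a measured value, and all 41 were found among the 30590 rows of the expression table. The cells are a stem cell line labelled Bry-GFP, a name used for cells that carry a GFP sequence at the Brachyury gene. On day 0 they grew on mouse embryonic fibroblast feeders in medium with serum and LIF, the cytokine that holds stem cells undifferentiated. Removed from the feeders, they spent 48 h in suspension in serum-free medium at 75000 cells per mL, during which aggregates called embryoid bodies form (day 2). For the next 48 h the medium held Activin A (9 ng/mL), Wnt3a (25 ng/mL) and Noggin (150 ng/mL), given to induce primitive streak (day 4), and for the last 48 h it held basic FGF (10 ng/mL; day 6). Polyadenylated RNA was sequenced in 7 libraries, 2 from each of days 0, 2 and 4 and 1 from day 6. All groups share 1 line and 1 protocol, and each day differs from the one before in both time and medium, so those 2 cannot be told apart.

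A cell that leaves the progenitor state to become a neuron switches on a set of transcription factors and RNA-binding proteins. It builds a microtubule and neurofilament skeleton for its axon and dendrites, and it makes the adhesion molecules that guide the growing tip. The proteins that load, dock and fuse synaptic vesicles and dense-core granules follow as the cell matures. Many of these genes carry a binding site for the repressor REST, which is known to hold neuronal genes silent in cells outside the nervous system. Noggin blocks BMP signalling, which in the early embryo keeps ectoderm from a neural fate.

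Levels are log2 of 1 plus scaled reads, so a difference of 1 is a change of about 2-fold in a gene well above 1 read, and changes of low genes are understated. The level that 3 reads would give lay between 1.45 and 2.3 in the 7 libraries, at rough depths of 2880000 to 5990000 reads, and differences between values under it were not read. An exact 0 in this table can be a failed estimate: Gapdh, which every cell uses, was listed at 0 in the day 6 library and between 1.85 and 7.13 in the others. Such values are called listed at 0. Changes were tested with limma over 21813 genes in 1 fit of all libraries, with an adjusted p under 0.05 as the threshold, and "rose" and "fell" are used for changes past it. Standard errors (SE) come from that fit, and the single day 6 library is assumed to vary like the others. The p-values measure the spread between these libraries, which the labels call biological replicates. In bulk RNA, fewer cells of a type and less RNA per cell cannot be told apart.

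The members were mostly low at the start and highest at the end. In 37 of the 41 the highest day mean was on day 6, in 2 on day 4 (Tubb3 and Crmp1) and in 2 on day 0 (Dpysl3 and Stmn2). The lowest mean was on day 0 for 23 members, on day 2 for 17 and on day 4 for 1 (Ina). On days 0 and 2, between 32 and 36 members were above the 3-read level in a library, and in both day 4 libraries and the day 6 library all 41 were. Over the 4 days, 33 of 41 members changed by limma's F test, beside 28.6% of all genes tested. The 8 that did not were Chga, Dner, Ebf1, Ina, L1cam, Stmn2, Syt1 and Tubb3.

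**Figure D1:**
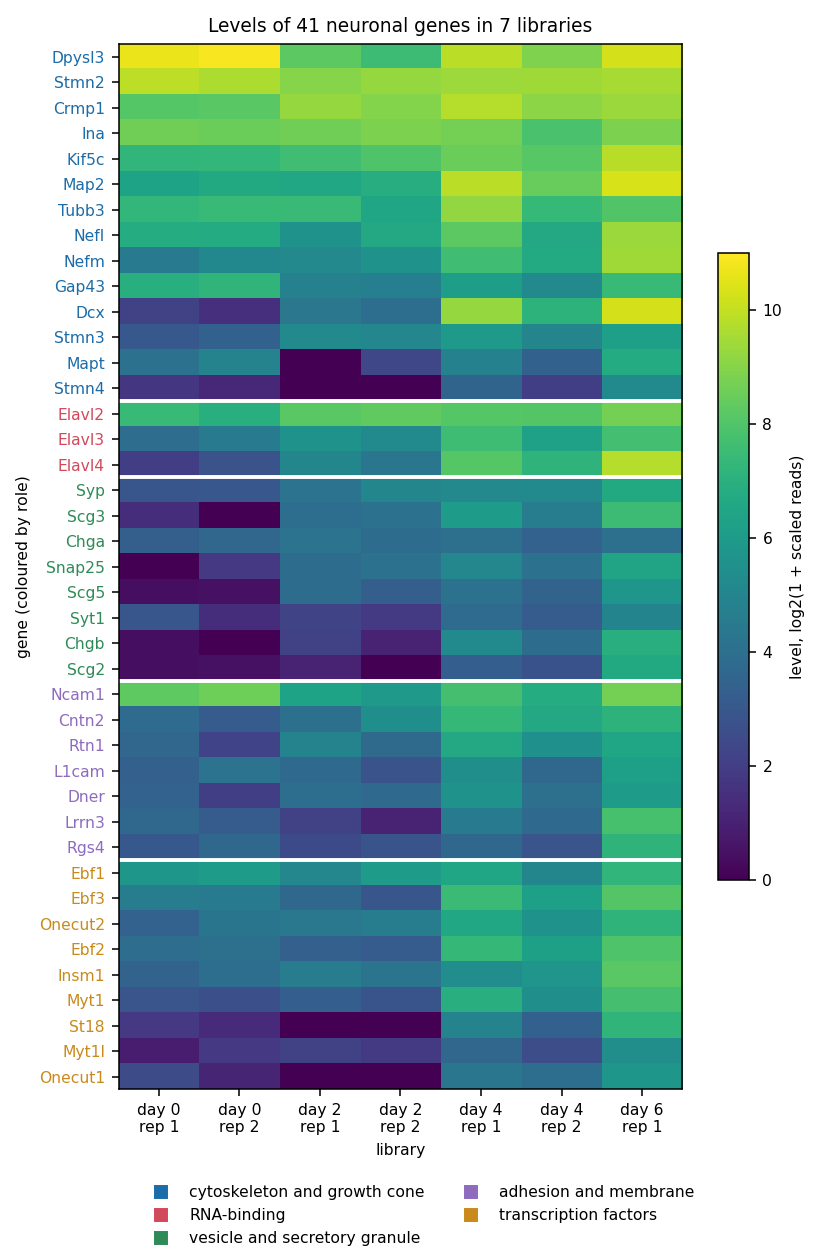
Level of each of the 41 members (rows, grouped by role) in each of the 7 libraries (columns), as log2 of 1 plus scaled reads on a colour scale from 0 to 11. Most rows are darkest in the day 0 or day 2 libraries and brightest on day 6, and in most rows the day 4 replicate 1 cell is brighter than that of replicate 2.

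The steps differed in which members moved. From day 0 to day 2, 8 members rose and 4 fell, beside 5.76% and 6.2% of all genes, and the median change was 0.28 over the members, 0.54 without the 3 listed at 0 throughout day 2 (Stmn4, St18 and Onecut1), and 0.05 over all genes tested. From day 2 to day 4, 8 rose, beside 1.45% of all genes, and none fell by limma at the threshold, beside 2.13%. St18 and Onecut1 are among those 8. The median member change at that step was 1.31, with or without those 3, against 0.00 over all genes. From day 4 to day 6, 6 rose, beside 1.27% of all genes, and none fell by limma, beside 3.18%, with a median change of 1.49 against 0.00. At an unadjusted p under 0.05, 11 members were higher and 9 lower at the first step, beside 14.9% and 12% of all genes. At the second step 24 were higher and 0 lower, beside 10.4% and 11.2%, and at the last 22 were higher and 0 lower, beside 12.6% and 12.7%. With any 1 of the day 0, 2 or 4 libraries left out, no member passed at the step to day 4, and neither did any gene of the table. Nor did any member pass at the step to day 6, where 0 genes of the table passed without a library of day 0 or day 4, 256 without day 2 replicate 1 and 298 without day 2 replicate 2. For the first step the same fits gave 0 to 4 members, with 0 to 691 genes of the table.

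Over longer intervals more members were past the threshold. From day 0 to day 4, 24 rose, beside 11.3% of all genes, and 2 fell, beside 10.4%. Those that fell were Gap43 and Dpysl3. From day 2 to day 6, 28 rose, beside 7.47% of all genes, none fell by limma, beside 8.41%, and at an unadjusted p under 0.05, 34 were higher and 0 lower, beside 16.0% and 15.5%. All 41 fitted changes from day 2 to day 6 were above 0, with a median of 2.91 against 0.00 over all genes. Without the 3 listed at 0 on day 2 they ran from 0.03 for Chga to 6.19 for Lrrn3, with a median of 2.62. Day 2 replicate 2 of Lrrn3 was under its 3-read level (1.09 against 2.25). Scg2, Mapt, Chgb, Myt1l and Syt1 also had a day 2 library under it, so the sizes of all these changes are uncertain. With a library of day 0, 2 or 4 left out, the count from day 0 to day 4 ran from 0 (without day 0 replicate 2 or day 4 replicate 1, when 1160 and 163 genes of the table passed) to 19, and it was 27 without the day 6 library. The count from day 2 to day 6 ran from 0 without day 4 replicate 1, when 0 genes of the table passed, to 17 without day 4 replicate 2, when 858 did. It was 2 without either day 0 library.

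**Figure D2:**
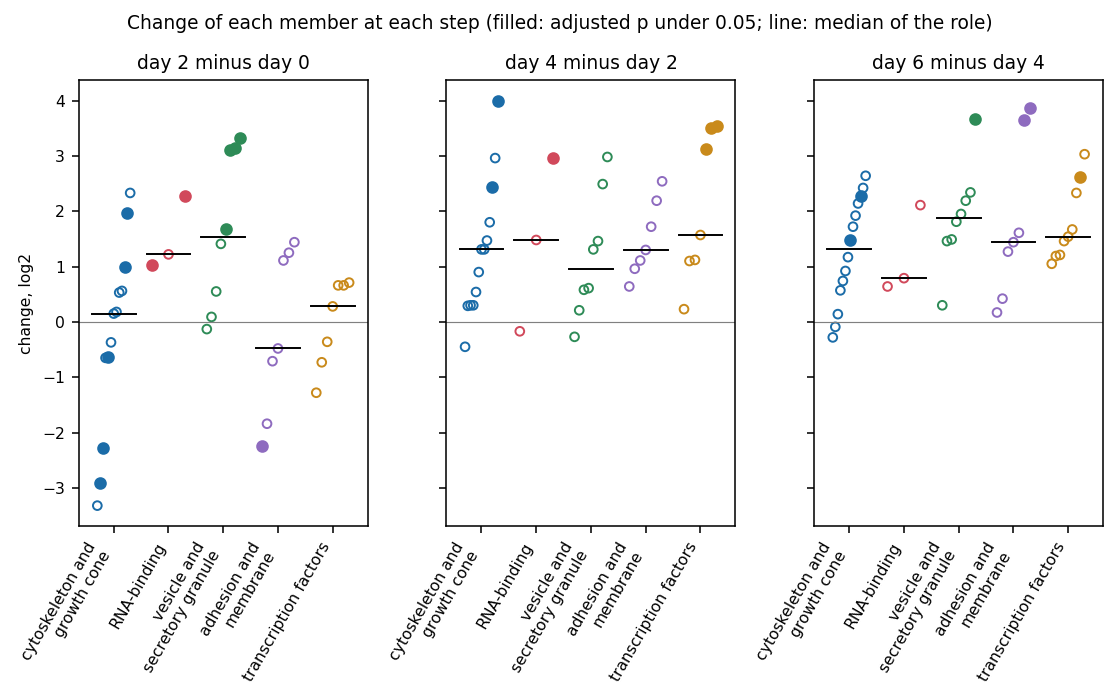
Fitted log2 change of each member at the steps from day 0 to 2, day 2 to 4 and day 4 to 6, grouped by role, with filled points for an adjusted p under 0.05 and a line at the median of the points drawn. Stmn4, St18 and Onecut1 are left out of the steps that involve day 2, when both libraries listed them at 0. The first step has points on both sides of 0, and in the other steps nearly all points lie above it.

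Among the 14 cytoskeleton and growth cone genes, Dcx and Map2 were the 2 that passed at the step to day 4. Dcx encodes doublecortin, a microtubule-binding protein of migrating neurons, and stood at 2.16 and 1.53 (day 0), 4.38 and 3.97 (day 2), 9.25 and 7.09 (day 4) and 10.31 (day 6). The libraries of each day lay above all those of the day before. Its rise from day 2 to day 4 was 4.00 (SE 0.67, limma adjusted p = 0.0329), and it was 2.92 without day 4 replicate 1 and 5.07 without day 4 replicate 2. From day 0 to day 4 it rose by 6.33 (SE 0.67, limma adjusted p = 0.00153), or by 5.25 without day 4 replicate 1 and 7.41 without replicate 2. Its change from day 0 to day 2 was 2.33 (SE 0.67) and missed the threshold (limma adjusted p = 0.072). Map2, a microtubule-associated protein of dendrites, was already at 6.40 and 6.67 (day 0) and 6.56 and 6.87 (day 2), then at 9.84 and 8.45 (day 4) and 10.32 (day 6). It stayed in one narrow band over the first 4 libraries and rose by 2.43 from day 2 to day 4 (SE 0.42, limma adjusted p = 0.036). That rise was 1.74 without day 4 replicate 1 and 3.13 without replicate 2.

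The 3 neurofilament genes differed in timing. Nefm, the medium neurofilament chain, was at 4.59 and 5.12 (day 0), 5.17 and 5.59 (day 2), 7.64 and 6.71 (day 4) and 9.45 (day 6). It rose by 2.32 from day 0 to day 4 (SE 0.37, limma adjusted p = 0.00654) and by 2.27 from day 4 to day 6 (SE 0.45, limma adjusted p = 0.0476), while its change from day 2 to day 4, 1.80, missed the threshold (limma adjusted p = 0.0541). Nefl, the light chain, ran from 5.63 to 6.79 over days 0 and 2, was at 8.21 and 6.66 (day 4) and at 9.36 (day 6), and rose between day 2 and day 6 by 3.23 (SE 0.65, limma adjusted p = 0.0226). The day 4 libraries of Nefl overlapped those of day 0 and lay above both of day 2, replicate 2 only just (6.66 against 6.63). Ina, which encodes the related filament protein alpha-internexin, kept a high level throughout, from 7.86 to 8.84, and did not pass any test. Kif5c, a kinesin motor heavy chain of neurons, went from 7.22 and 7.27 (day 0) to 9.83 (day 6) and rose in the last step by 1.48 (SE 0.24, limma adjusted p = 0.0313).

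Several growth cone genes were high in the stem cell cultures and went down first. Dpysl3, a collapsin response mediator that acts on the growth cone cytoskeleton, was at 10.69 and 10.91 (day 0) and at 8.22 and 7.56 (day 2). It fell by 2.91 (SE 0.35, limma adjusted p = 0.00481), and then stood at 9.87 and 8.87 (day 4) and 10.29 (day 6), a rise over day 2 of 2.40 (SE 0.43, limma adjusted p = 0.0158). Gap43, the growth-associated protein of extending axons, followed the same shape, with 6.93 and 7.18 (day 0), 4.82 and 4.74 (day 2), 6.16 and 5.20 (day 4) and 7.40 (day 6). Its fall by day 2 was significant (it fell by 2.27, SE 0.34, limma adjusted p = 0.00984), as was its rise from day 2 to day 6 (2.62, SE 0.42, limma adjusted p = 0.0115). Stmn2, a tubulin-binding stathmin of neurons, was among the highest members in every library, from 9.01 to 9.92, and fell slightly by day 2, by 0.64 (SE 0.15, limma adjusted p = 0.0391). Ncam1, the neural cell adhesion molecule, belongs to the adhesion group but moved like Dpysl3: it was at 8.29 and 8.56 (day 0), 6.38 and 5.97 (day 2), 7.77 and 6.81 (day 4) and 8.72 (day 6). It fell by 2.25 in the first step (SE 0.33, limma adjusted p = 0.00914) and rose by 2.55 from day 2 to day 6 (SE 0.40, limma adjusted p = 0.0113). These are the 4 members that fell at the first step, beside 6.2% of all genes. Their day 0 and day 2 libraries did not overlap, which adds no support since the genes were picked by that fall.

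Day 0 cultures held feeder fibroblasts, and the feeder markers fell in the same first step as these 4 genes. The summed level of 12 fibroblast markers such as Col1a1 and Postn was 14.74 to 14.84 (day 0) and 10.2 to 10.82 (day 2). It was 8.87 to 9.07 (day 4) and 9.39 (day 6). From day 0 to day 2, 10 of the 12 markers fell, beside 6.2% of all genes. Of these markers, only Lum was listed at 0 in any library, in day 4 replicate 2. The part of feeder RNA in the day 0 levels of the members was not tested. From day 2 to day 4, 6 of the 12 markers fell, beside 2.13% of all genes. The day 4 means of Dpysl3, Gap43, Ncam1 and Stmn2 were above their day 2 means. None of these 4 changes passed (limma adjusted p = 0.0744, 0.191, 0.12 and 0.33, in that order). The part of feeder RNA in the later changes was not tested either. The day 0 means do not enter the change from day 2 to day 6, but the day 0 libraries enter the spread it is tested against.

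**Figure D3:**
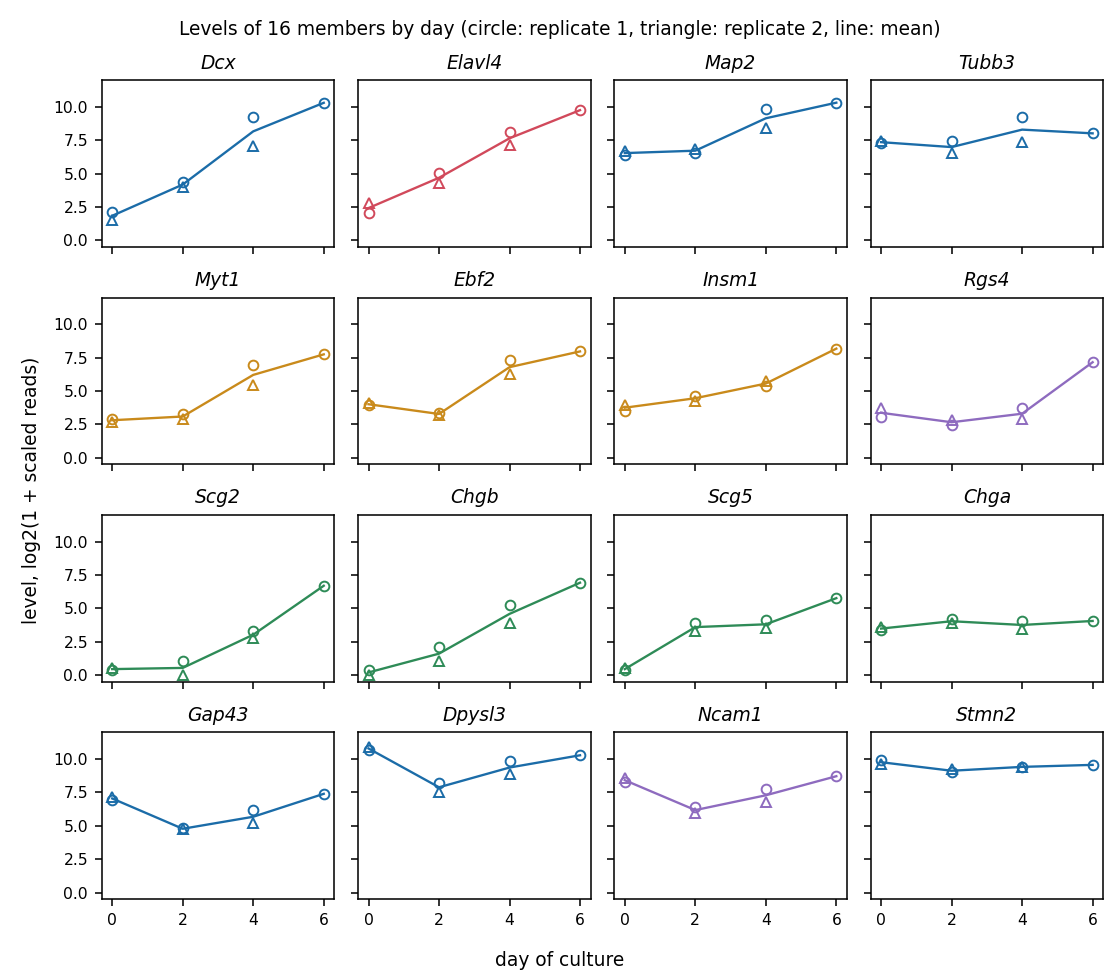
Level of 16 members by day, as log2 of 1 plus scaled reads, with circles for replicate 1, triangles for replicate 2 and a line through the day means. Dcx and Elavl4 climb at each step, Rgs4 and Insm1 mainly after day 4, Gap43, Dpysl3 and Ncam1 dip on day 2, and Stmn2 and Chga stay nearly level.

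Other cytoskeleton members were smaller or more variable. Tubb3 encodes class III beta-tubulin, the tubulin most used to stain neurons, and was at 7.29 and 7.44 (day 0), 7.46 and 6.52 (day 2), 9.21 and 7.38 (day 4) and 8.02 (day 6). Its day 4 replicate 2 lay within the range of days 0 and 2 and its replicate 1 above the day 6 library, and no comparison passed. Stmn3, another stathmin, rose early, from 3.02 and 3.42 to 5.25 and 5.10 by day 2 (1.96, SE 0.40, limma adjusted p = 0.0264), and was at 5.96 and 4.99 (day 4) and 6.21 (day 6). Crmp1, a relative of Dpysl3, rose by 0.99 in the same step (SE 0.23, limma adjusted p = 0.0405), from 8.08 and 8.18 to 9.27 and 8.97. Mapt, which encodes the axonal protein tau, was at 4.10 and 4.90 (day 0), listed at 0 and at 2.35 (day 2), at 4.85 and 3.41 (day 4) and at 6.78 (day 6). Its rise from day 2 to day 6 was 5.60 (SE 1.06, limma adjusted p = 0.0184), or 4.43 without day 2 replicate 1, the library listed at 0, and 6.78 without replicate 2. For Stmn4 both day 2 libraries gave 0, and the day 6 library gave 5.21.

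The 3 RNA-binding members are ELAV-like proteins, which stabilise and splice messages in neurons. Elavl4 (HuD) was at 2.02 and 2.81 (day 0), 5.05 and 4.32 (day 2), 8.12 and 7.17 (day 4) and 9.76 (day 6), with no overlap between days. It rose by 2.27 in the first step (SE 0.46, limma adjusted p = 0.025, or 0.0745 with an offset of 10) and by 2.96 in the second (SE 0.46, limma adjusted p = 0.0262), and its rise of 5.23 from day 0 to day 4 (limma adjusted p = 0.000822) kept its call without 1 library in 3 of 6 cases. Elavl3 (HuC) went from 3.95 and 4.51 (day 0) to 5.62 and 5.28, then 7.57 and 6.29, then 7.72. It had risen by 2.70 (day 4) against day 0 (SE 0.45, limma adjusted p = 0.00776), a rise of 2.06 without day 4 replicate 1 and 3.34 without replicate 2. Elavl2 (HuB), which is also expressed in germ cells, was high from the start at 7.47 and 6.95 and, of the 3 steps, passed at the first, to 8.17 and 8.31 (1.03, SE 0.20, limma adjusted p = 0.0219), with 8.11 and 8.04 (day 4).

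Among the 8 vesicle and granule genes, 4 rose by day 2, beside 5.76% of all genes, and the others later or not at all. With an offset of 10 in place of 1, which damps low levels, Snap25, Syp and Scg3 missed the threshold at that step, at changes of 1.17, 1.02 and 1.24 (limma adjusted p = 0.0529, 0.0598 and 0.104), and Scg5 passed at 1.04 (limma adjusted p = 0.0369). Snap25, a plasma membrane SNARE protein that drives vesicle fusion, was listed at 0 and at 1.82 (day 0) and was at 3.87 and 4.16 (day 2), 5.09 and 4.16 (day 4) and 6.43 (day 6). Its first-step rise was 3.10 (SE 0.67, limma adjusted p = 0.0318), or 2.19 without day 0 replicate 1, the library at 0, and 4.01 without replicate 2. Syp encodes synaptophysin, an abundant synaptic vesicle membrane protein, and went from 2.94 and 2.97 to 4.18 and 5.07 (day 2), 5.16 and 5.26 (day 4) and 6.70 (day 6). It rose by 1.67 in the first step (SE 0.38, limma adjusted p = 0.0368) and its day 4 replicates were nearly equal. Syt1, the calcium sensor of vesicle release, was between 1.45 and 2.93 in the first 4 libraries, at 3.84 and 3.21 (day 4) and at 4.98 (day 6), and rose between day 2 and day 6 by 2.92 (SE 0.76, limma adjusted p = 0.0463).

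The 5 remaining vesicle members encode granins and a granin-like chaperone, which are cargo of dense-core granules. Scg5, a chaperone of the prohormone convertase 2, came first, from 0.40 and 0.51 (day 0), both under the 3-read level, to 3.89 and 3.32 (day 2), 4.11 and 3.52 (day 4) and 5.77 (day 6). It rose by 3.15 in the first step (SE 0.46, limma adjusted p = 0.00894), a size that starts from values too low to read. Scg3, which binds other granins at the granule membrane, rose with it, from 1.45 and a library listed at 0 to 3.99 and 4.12 (day 2), and stood at 6.10 and 4.63 (day 4) and 7.55 (day 6). That first-step rise was 3.33 (SE 0.66, limma adjusted p = 0.0241), and 4.06 without day 0 replicate 1 or 2.61 without day 0 replicate 2. Chgb and Scg2 came later. Chgb (chromogranin B) was at or under 0.40 (day 0), at 2.12 and 1.09 (day 2), at 5.28 and 3.90 (day 4) and at 6.93 (day 6). It rose from day 2 to day 6 by 5.32 (SE 0.79, limma adjusted p = 0.00962), a size that rests on a day 2 library under the 3-read level. Scg2 (secretogranin II) was at or under 1.08 in the first 4 libraries, at 3.29 and 2.78 (day 4) and at 6.70 (day 6), and rose by 3.67 in the last step (SE 0.70, limma adjusted p = 0.045). Chga (chromogranin A) did not move with them: it lay between 3.35 and 4.20 in all 7 libraries, its change from day 2 to day 6 was 0.03 (SE 0.50), and it passed no test.

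Because 4 of these 5 genes rose over the course and Chga did not, a stretch of 30 bases around the first TGACG motif, part of the cAMP response element, before the start of each gene is shown, from the RefSeq promoter windows of GRCm38.p6. Capitals mark TGACG, or the whole palindrome TGACGTCA where it is complete, and each sequence reads 5′ to 3′ on the strand of its gene.
Scg5: aaggaggtaaaTGACGttcataggggtcga
Scg3: cgctgggtcgcTGACGccatcctcacgcct
Chgb: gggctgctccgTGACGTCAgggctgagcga
Scg2: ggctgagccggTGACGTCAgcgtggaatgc
Chga: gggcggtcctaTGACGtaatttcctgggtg
The stretches lie at chr2:113829248-113829277 on the minus strand for Scg5, chr9:75684068-75684097 on the minus strand for Scg3, and chr2:132781559-132781588 on the plus strand for Chgb. Those of Scg2 and Chga lie at chr1:79440076-79440105 on the minus strand and chr12:102554886-102554915 on the plus strand. The motif began 175, 30, 72, 68 and 44 bases before the RefSeq start, in the order of the sequences, and the Chgb and Scg2 stretches fall within an exon of the gene in the GENCODE annotation. All 5 windows thus held TGACG, the level gene Chga included. On either strand TGACG was in 14 of the 27 members with a window and in 20.8% of 32851 windows of 300 bases. The palindrome, which contains TGACG on both strands, was in 3 of the 27 (Chgb, Scg2 and Kif5c) and in 1.79% of windows. TTCAGCACC, the left arm of the REST binding site, was in 2 (Scg2 and Dner) and in 0.371% of windows. These matches describe the letters of the windows only.

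The 7 adhesion and membrane genes changed mostly after day 2. Rgs4, a regulator that shortens G protein signals, was between 2.46 and 3.72 in the first 4 libraries, at 3.70 and 2.89 (day 4) and at 7.16 (day 6). The day 4 libraries overlapped those of day 0 and lay above both of day 2, and the rise in the last step was 3.86 (SE 0.58, limma adjusted p = 0.0268). Lrrn3, a leucine-rich repeat membrane protein of neurons, was at 3.71 and 3.19 (day 0), 2.12 and 1.09 (day 2), 4.55 and 3.75 (day 4) and 7.80 (day 6). It rose by 3.65 in the last step (SE 0.64, limma adjusted p = 0.0364) and by 6.19 from day 2 to day 6 (SE 0.64, limma adjusted p = 0.00373). The second size rests on a day 2 library under the 3-read level.

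Cntn2 and Rtn1 were no higher on day 6 than in day 4 replicate 1. Cntn2 encodes contactin 2 (TAG-1), an adhesion molecule of early commissural and motor axons, and was at 3.85 and 3.21 (day 0), 4.07 and 5.48 (day 2), 7.31 and 6.63 (day 4) and 7.13 (day 6). Its rise from day 0 to day 4 was 3.44 (SE 0.52, limma adjusted p = 0.00554). Rtn1, a reticulon of the endoplasmic reticulum in neurons, was at 3.63 and 2.23 (day 0), 4.93 and 3.82 (day 2), 6.65 and 5.53 (day 4) and 6.51 (day 6), a rise from day 0 to day 4 of 3.16 (SE 0.64, limma adjusted p = 0.0161) that was 2.46 without day 0 replicate 2 and 3.86 without replicate 1. For both genes the day 6 library lay between the day 4 libraries. L1cam, an adhesion molecule of axon bundles, and Dner, a neuronal membrane protein that binds Notch, passed no test. L1cam was at 5.49 and 3.69 (day 4) and 6.20 (day 6), and Dner at 5.60 and 4.06 (day 4) and 6.10 (day 6), so replicate 2 of each lay near its day 2 values of 2.80 to 3.99.

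The 9 transcription factors made up 5 of the 8 members that rose from day 2 to day 4, and none of them passed from day 0 to day 2 by limma. In that first step 3 were lower on day 2 at an unadjusted p under 0.05, beside 12% of all genes. These were St18, Onecut1 and Ebf3, with changes of -1.58, -1.85 and -1.28. Of these, St18 and Onecut1 each had a day 0 library under its 3-read level. Ebf2 and Ebf3 are early B cell factors, which act downstream of proneural factors in newly formed neurons. Ebf2 was at 3.94 and 4.08 (day 0), 3.36 and 3.21 (day 2), 7.31 and 6.27 (day 4) and 7.97 (day 6). It rose by 3.50 from day 2 to day 4 (SE 0.38, limma adjusted p = 0.012). Ebf3 ran alongside, at 4.66 and 4.53, 3.67 and 2.96, 7.49 and 6.21, and 8.06, with a rise of 3.54 (SE 0.47, limma adjusted p = 0.0184) that was 2.90 without day 4 replicate 1 and 4.17 without replicate 2. Both day 4 libraries of these genes lay above all earlier libraries. Ebf1 did not follow them: it was at 5.83 and 6.03 (day 0), 5.08 and 6.05 (day 2), 6.53 and 5.06 (day 4) and 7.26 (day 6), and passed no test.

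The 3 members of the Myt1 zinc finger family, which repress non-neuronal and Notch target genes, appeared in the order Myt1 and St18, then Myt1l. Myt1 was at 2.92 and 2.70 (day 0), 3.30 and 2.87 (day 2), 6.96 and 5.47 (day 4) and 7.75 (day 6). It rose by 3.13 from day 2 to day 4 (SE 0.52, limma adjusted p = 0.0323), or by 2.38 without day 4 replicate 1 and 3.87 without replicate 2. St18 (Myt3) was under 2 on day 0, listed at 0 in both day 2 libraries, at 4.90 and 3.42 (day 4) and at 7.19 (day 6), and its test from day 2 to day 4 passed (limma adjusted p = 0.0236). Myt1l, used in the conversion of fibroblasts to neurons, was between 0.86 and 2.12 in the first 4 libraries, at 3.63 and 2.58 (day 4) and at 5.44 (day 6), and rose from day 2 to day 6 by 3.45 (SE 0.72, limma adjusted p = 0.0249).

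Onecut1 and Onecut2 are cut-homeodomain factors of early neurons, and both were higher on day 4 than before. Onecut1 was at 2.57 and 1.12 (day 0), listed at 0 in both day 2 libraries, at 4.30 and 3.97 (day 4) and at 5.81 (day 6), and passed from day 2 to day 4 (limma adjusted p = 0.0236). Onecut2 was between 3.47 and 4.68 in the first 4 libraries, at 6.61 and 5.59 (day 4) and at 7.15 (day 6), a rise from day 0 to day 4 of 2.23 (SE 0.44, limma adjusted p = 0.0147). Insm1, a zinc finger factor of delaminating neural progenitors and endocrine cells, was the 1 factor to pass at the last step. It was at 3.51 and 3.99 (day 0), 4.66 and 4.25 (day 2), 5.38 and 5.74 (day 4) and 8.18 (day 6), and its last step was 2.62 (SE 0.40, limma adjusted p = 0.0268).

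The order of onset was read from the libraries without a test. Onset was taken as the first day on which every library was at least 1 above the highest day 0 library and above its own 3-read level. By this rule 7 members had their onset on day 2, beside 3.6% of all genes: Dcx, Stmn3, Elavl4, Snap25, Syp, Scg3 and Scg5. These include 4 of the 8 vesicle genes and none of the 9 transcription factors. Another 14 had it on day 4, beside 4.64% of all genes, and 7 of these were transcription factors (Myt1, St18, Ebf2, Ebf3, Insm1, Onecut1 and Onecut2). The others were Map2, Nefm, Elavl3, Scg2, Chgb, Cntn2 and Rtn1. On day 6, when a single library decides, 13 had their onset, beside 7.62% of all genes: Stmn4, Mapt, Nefl, Crmp1, Kif5c, Elavl2, Syt1, L1cam, Lrrn3, Dner, Rgs4, Myt1l and Ebf1. Of these 13, Crmp1 and Elavl2 had already risen by day 2 (by 0.99 and 1.03) and Kif5c by day 4 (by 1.10). Before day 6, these genes had no day with every library at least 1 above the highest day 0 library. The last 7, Tubb3, Stmn2, Gap43, Ina, Dpysl3, Chga and Ncam1, had none, and all of them were above the 3-read level in every day 0 library. Without day 4 replicate 2 the day 4 onsets numbered 22 and the day 6 onsets 6, and without day 2 replicate 2 the day 2 onsets numbered 11.

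Counting only whether libraries overlapped gave a similar picture of the steps. Both day 4 libraries lay above both day 2 libraries for 31 of 41 members, beside 20.9% of all genes, and below them for 1, Elavl2, beside 22.0%. The day 6 library lay above both day 4 libraries for 36 members, beside 38.0% of all genes, and below both for none, beside 29.1%. The 5 exceptions on day 6 were Tubb3, Crmp1, Chga, Cntn2 and Rtn1.

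The day 4 libraries differed from each other across the members. Replicate 1 was higher than replicate 2 for 38 of 41 members (92.7%), while among the 14775 genes with a readable level it was higher for 49.4%. The median difference of the members was 0.98, from -0.36 to 2.15, against -0.01 over those genes. In 19 members replicate 1 was higher by at least 1, beside 5.13% of genes, and in none was replicate 2, beside 7.17%. Dcx differed most, at 9.25 against 7.09, followed by Tubb3 at 9.21 against 7.38, L1cam at 5.49 against 3.69 and Nefl at 8.21 against 6.66. The 3 members that were not higher in replicate 1 were Stmn2 (9.41 and 9.44), Syp (5.16 and 5.26) and Insm1 (5.38 and 5.74). With 1 library each, these differences describe the pair and have no test.

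The difference ran through every role and was smaller on the earlier days. The median was 0.99 for the cytoskeleton genes, 0.95 for the RNA-binding genes, 0.63 for the vesicle genes, 0.96 for the adhesion genes and 1.05 for the transcription factors. On day 0 replicate 1 was the higher for 16 of 38 readable members with a median difference of -0.12, and on day 2 for 22 of 37 with a median of 0.26. Of 36 members with day 6 at least 1 above the day 2 mean, day 4 replicate 1 had covered a median of 67.8% of that log2 rise and replicate 2 a median of 36.7%, with Stmn4, St18 and Onecut1 counted from 0. Map2 stood at 86.8% and 48.2% of its rise, Myt1 at 83.0% and 51.0%, Nefl at 64.5% and 16.4%, and Insm1 at 24.8% and 34.5%. Among these 36, replicate 1 was at or above the day 6 library in 3 (Tubb3, Cntn2 and Rtn1) and replicate 2 in none.

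Other groups of genes had smaller medians. The median of replicate 1 minus replicate 2 on day 4 was 0.44 over 47 readable genes of 50 other neuronal genes, 0.68 over 16 neuron subtype factors, 0.38 over 13 Notch pathway genes, 0.17 over 15 neural progenitor genes and 0.07 over 9 proneural and neuronal bHLH factors. It was -0.11 over 8 pluripotency genes, 0.33 over 6 primitive streak and mesoderm genes, 0.01 over 8 endoderm and notochord genes and 0.68 over 10 feeder fibroblast markers. Replicate 1 was the shallower library, at roughly 2880000 reads against 4420000. Actb was at 12.16 and 12.12 in the pair and Gapdh at 3.51 and 7.08. The part of depth or of cell composition in the difference was not tested.

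**Figure D4:**
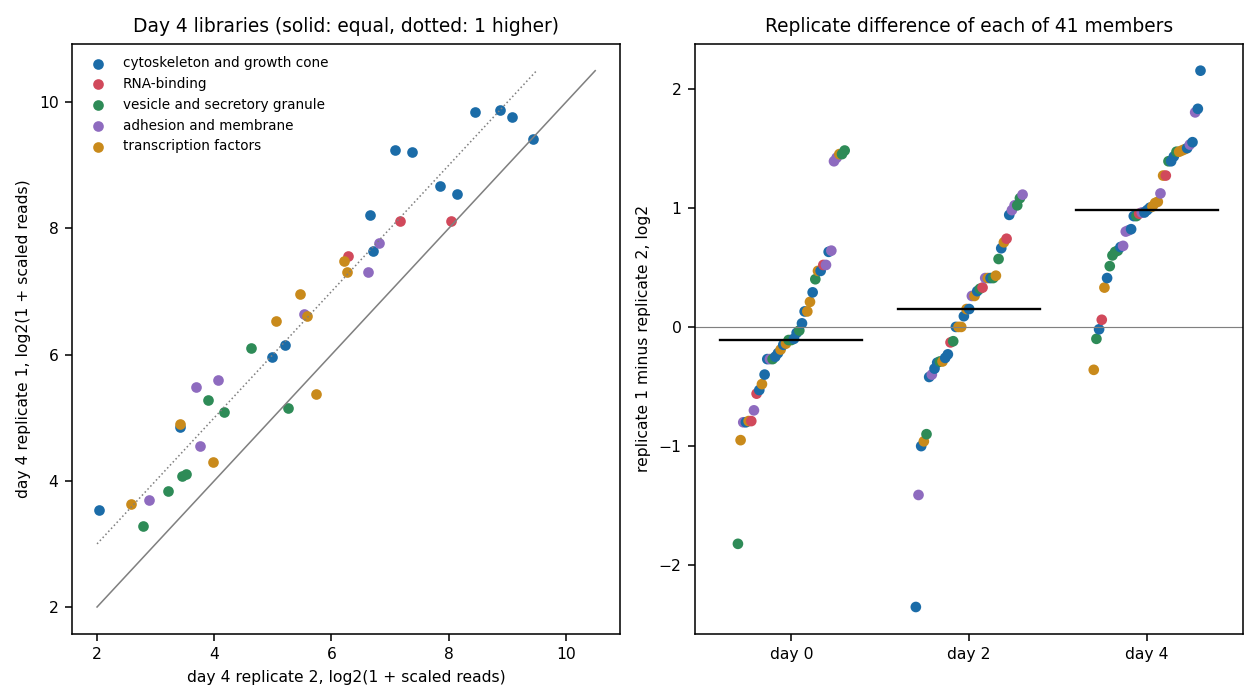
Left, each member's level in day 4 replicate 1 against replicate 2, with a solid line for equal levels and a dotted line for a difference of 1. Right, replicate 1 minus replicate 2 for all 41 members on days 0, 2 and 4, with a line at the median. On day 4 all but 3 points lie above 0, while on days 0 and 2 the points lie on both sides.

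Upstream regulators and other neuronal genes were read from lists beside the members. Of 50 other neuronal genes, 10 rose and 4 fell by day 2, beside 5.76% and 6.2% of all genes. From day 2 to day 4, 3 rose (Nsg2, Ank3 and Dcc), beside 1.45% of all genes. From day 4 to day 6, 2 rose (Syt4 and Cpe), beside 1.27%. From day 2 to day 6, 17 rose and none fell by limma at the threshold, beside 7.47% and 8.41%. The median change of that list from day 2 to day 6 was 1.25, against 2.91 for the members. Of 12 proneural and neuronal bHLH factors, the class that starts neuronal differentiation, 5 rose from day 2 to day 4, beside 1.45% of all genes. They were Neurog1, Neurog2, Neurod4, Nhlh1 and Nhlh2. Nhlh2 went from 1.82 and a library listed at 0 on day 2 to 8.27 and 6.38 (day 4). Neurod4 was at 5.33 and 5.30 (day 4) and 8.35 (day 6). Both day 4 libraries of Neurod4 were thus nearly equal, while those of Nhlh2 differed like Dcx.

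REST itself was lower from day 4 on, and its part in the members' changes was not tested. Rest was at 10.04 and 9.89 (day 0), 9.98 and 9.92 (day 2), 9.24 and 9.28 (day 4) and 8.75 (day 6). Its changes from day 0 to day 2 (-0.01, limma adjusted p = 0.991) and from day 4 to day 6 (-0.51, limma adjusted p = 0.0851) missed the threshold. It fell by 0.69 from day 2 to day 4 (SE 0.11, limma adjusted p = 0.03), and its day 4 replicates were nearly equal. It was the only one of 12 genes for REST, its co-repressors and the splicing repressors Ptbp1 and Ptbp2 to pass at that step. Ptbp1, which represses neuronal exons in other cells, was between 10.22 and 10.90 in the first 6 libraries and at 9.42 (day 6). It fell by 1.39 in the last step (SE 0.23, limma adjusted p = 0.0322). Ptbp2, its neuronal counterpart, rose in the first step, from 7.42 and 6.97 to 9.04 and 9.26.

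Markers of other cell types, some of which share these genes, were read in the same libraries. The summed level of 9 astrocyte and oligodendrocyte markers went from 5.81 to 5.89 on day 0 to 6.74 to 6.82 on day 2, 7.9 to 8.18 on day 4 and 8.08 on day 6, and Mbp, the myelin basic protein gene, rose by 2.36 from day 0 to day 2. Sox9, also a progenitor factor, rose by 2.33 from day 2 to day 4, and Aldh1l1 by 1.60 from day 0 to day 4. Aqp4 went from 0.40 and 0 (day 0) to 3.36 (day 6), while Gfap, S100b, Mog and Mag stayed at or under 1.81 in every library. The summed level of 8 neural crest and peripheral glia markers lay between 8.27 and 8.72 in all libraries, with opposite moves within it. From day 0 to day 4 Tfap2b rose by 4.33 and Erbb3 by 1.59 and Ets1 fell by 1.96, and in the last step Foxd3 fell to a value listed at 0. Sox10 was at or under 2.46 in every library. The sum of 7 muscle markers was 7.39 to 7.81 (day 2) and between 5.78 and 6.93 on the other days. The part of these cells in the members' changes was not tested.

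All 41 members are protein-coding genes of the GENCODE annotation of GRCm38, spread over 16 chromosomes with at most 7 on one. Only the neurofilament pair lies together: Nefl at chromosome 14, bases 68083863 to 68089095 on the plus strand, and Nefm at bases 68082590 to 68124846 on the minus strand, where their annotated exons overlap. The sources used here do not say whether reads were counted by strand, so reads of that overlap could be assigned to either gene. In all, 10 members share exon bases with a gene on the opposite strand and 3 with a gene on the same strand (Elavl3, L1cam and Onecut1), and their levels carry that uncertainty.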

How the data were processed

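The authors deposited 1 table of natural log values, ln of 1 plus scaled reads, a scale read here from the steps between low values since no label names it. Sorted values of the 7 libraries matched within 0.01 over the 9896 highest ranks, which is what quantile normalization gives. Per the submitters' processing notes, the build was GRCm38; the aligner and the counting tool and its annotation are unstated in these sources. The column named DOG45, with a letter O, was taken as day 0 replicate 2. Values were divided by the natural log of 2 to give log2 levels.

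Of 30590 rows, 103 of foreign sequence (92 of them spike-in RNAs) and 8674 at 0 in every library were left out, which left 21813 genes. The test was limma-trend with robust moderation (limma 3.58.1, R 4.3.3), with 1 mean per day, 3 residual degrees of freedom and Benjamini-Hochberg adjustment over all genes tested. The script was tested on simulated data as a check of the code. Rough depth was read from the step that 1 read makes in low values. Members are described by role, with full statistics for those with the largest changes past the threshold and for those that moved against their role. The 41 members and the gene lists were chosen with earlier results of these data known, so their patterns are not independent support for those results. Positions come from the GENCODE annotation vM21 and promoter windows from RefSeq GRCm38.p6. The alternatives were a filter on low values, an offset of 10, median centring, plain moderation, a replicate block, fits of the compared days alone and leaving out each library.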

Additional observations from a re-analysis of the deposited data

How the results depend on the processing

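No called change of a member reversed: without 1 library, 480 of 480 values kept their direction and 93 kept their call, and under the other settings 419 of 475 kept it. Those 480 include fits that left out a library of a day outside the comparison, where the change could not move. Its direction was fixed in advance there. Without robust moderation and trend the members past the threshold numbered 3 from day 0 to day 2, 1 from day 2 to day 4 and 2 from day 4 to day 6. In that fit 1609, 335 and 609 genes of the table passed, against 2609, 782 and 972 in the fit used above. With the replicate block, 3 passed from day 4 to day 6, when 606 genes of the table did, and 9 of 80 called changes missed the threshold. They were Stmn2 from day 0 to 2 (limma adjusted p = 0.064), Map2 from day 2 to 4 (0.0507), Kif5c (0.0541), Nefm (0.0741) and Scg2 (0.0699) from day 4 to 6, and Syt1, Myt1l, Elavl3 and Scg5 from day 2 to 6. Column names share a number across days, but same-numbered libraries deviated together only on days 2 and 4 (r of replicate differences 0.222 over 11800 genes, against -0.0582 for days 0 and 2 and -0.0662 for days 0 and 4), so the numbers were not taken as pairs. Leaving out each library of days 0, 2 and 4 gave 0 to 4, 0 to 0, 0 to 0, 0 to 19 and 0 to 17 members for day 2 over 0, 4 over 2, 6 over 4, 4 over 0 and 6 over 2, and 0 to 20 for the F test, with fewer residual degrees of freedom. Without the day 6 library 13, 11, 27 and 30 passed for day 2 over 0, 4 over 2, 4 over 0 and the F test. The genes of the table that passed in that fit numbered 2871, 1092, 4951 and 4743. Leave-one-out onsets ran from 7 to 11 on day 2, 11 to 22 on day 4, 6 to 13 on day 6 and 6 to 7 for none. With a rise of 2 required, 3 members had their onset on day 2, 8 on day 4 and 11 none. With a difference of 2 required, 1 member was higher in day 4 replicate 1, and 12 were with an offset of 10. Depth limits reading to levels above 1.45 to 2.3.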
